A study of Mus musculus with 4 samples.

Results

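The genes described here are 37 transcription factors and cofactors known from the developing hindbrain and spinal cord for marking neuronal lineages. They were chosen by name out of the 32285 genes counted. Single nuclei of mouse hindbrain were profiled with 10x Genomics 3′ RNA sequencing, from the piece of tissue that holds the area postrema (AP) and the nucleus of the solitary tract (NTS). WT mice were compared with AgRP-Gq;POMC-Gi mice (AgRP-IRES-Cre+/-;hM3DGqfl/-;POMC-Dre+/-;hM4DGifl/-), in which Cre, driven from the AgRP gene, switches on the activating receptor hM3DGq and Dre, driven from POMC, switches on the inhibitory receptor hM4DGi. The study's methods give its control group as AgRP-IRES-Cre-/-;hM3DGqfl/-;POMC-Dre-/-;hM4DGifl/-, so the mice labelled WT would carry both receptor alleles and neither recombinase. Both genotypes had the same treatment: 3 mg/kg of the receptor ligand clozapine N-oxide (CNO) given intraperitoneally, followed by 1 h without food before the tissue was taken. The mice were adults of 12 to 20 weeks and of both sexes, and mice of a condition were pooled with n = 2 mice per group. The receptor alleles are stop cassettes at Rosa26 under the CAG promoter, so AgRP and POMC drive the recombinases only, and none of the 37 genes drives either. There were 2 libraries per genotype, and whether they came from separate mice is not stated in the sources used here, so p-values between genotypes measure the spread between libraries only.

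A vertebrate hindbrain neuron takes its identity from where its progenitor lay along the dorsoventral axis and from the transcription factors switched on as it left the cell cycle. Homeodomain, LIM, paired-box and zinc finger factors act in combination, and many of the pairs studied in the spinal cord split excitatory from inhibitory fates: Tlx3 and Lmx1b go with glutamatergic dorsal neurons, while Pax2, Pax8, Lhx1, Lhx5 and Gbx1 go with GABAergic and glycinergic ones. Several of these factors stay on in the adult, which makes them usable as lineage tags in adult nuclei. The NTS and AP are known to contain neurons of dorsal origin that depend on Tlx3 and Lmx1b.

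The deposited annotation kept 39461 nuclei, of which 12539 were neurons (31.8%), in 134 of 184 clusters of 15 to 227 nuclei. Each library gave 2470 to 3696 neurons and between 26860073 and 35583732 unique molecular identifiers (UMIs) in them. Neurons made up 25.4 and 27.2% of the kept nuclei in WT 1 and WT 2. In AgRP-Gq;POMC-Gi 1 and 2 they made up 38.0 and 36.5%, so the mix of cell types differed between the genotypes. Neuronal markers were high in these nuclei in every library: Rbfox3 lay at 243 to 272, Snap25 at 703 to 731 and Syt1 at 1299 to 1385 UMIs per 1000000 UMIs of the same nuclei (CPM). The oligodendrocyte transcript Mbp was detected in the neuron sums at 73.2, 61.9, 36.4 and 49.9 CPM, in the order WT 1, WT 2, AgRP-Gq;POMC-Gi 1 and AgRP-Gq;POMC-Gi 2, against 3863 CPM in oligodendrocytes. Lists of 4 library values below follow this order. One library stood apart: Xist, the RNA that silences an X chromosome in female cells, was 507, 319, 541 and 16.2 CPM, lowest by far in AgRP-Gq;POMC-Gi 2. Sex was not a term in the comparisons between genotypes, where low Xist fell in 1 AgRP-Gq;POMC-Gi library and in no WT library. The libraries shared 208 barcode sequences between pairs, 168 of them among kept nuclei. The clusters were built from expression, so differences between them are descriptions without a test. CPM grow with the length of a gene, since nuclear RNA holds introns, so levels are compared within a gene and never between genes.

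The promoters of 5 members are shown because these genes mark the main division described below, 3 for glutamatergic clusters (Lmx1b, Tlx3, Pou4f1) and 1 for GABAergic clusters (Pax8), or because they lie head to head with a non-coding gene whose cluster pattern was among the 3 most like theirs (Lmx1b, Tlx3, Lhx1). They are the bases just before the annotated start of each gene, written 5′ to 3′ on the gene's own strand from RefSeq windows on GRCm38.p6. The Lmx1b window is chr2:33641099-33641192 (minus strand, up to the start of C130021I20Rik), that of Tlx3 is chr11:33203590-33203838 (minus strand, before Gm12116), that of Lhx1 is chr11:84525536-84525659 (minus strand, between the starts of Lhx1 and Lhx1os), that of Pax8 is chr2:24475600-24475849 (minus strand) and that of Pou4f1 is chr14:104468000-104468249 (minus strand). Capitals mark matches to CANNTG, the E-box bound by basic helix-loop-helix factors, and to CCAAT, bound by NF-Y, on either strand.
Lmx1b: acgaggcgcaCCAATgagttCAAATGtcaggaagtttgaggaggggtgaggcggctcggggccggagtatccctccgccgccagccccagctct
Tlx3: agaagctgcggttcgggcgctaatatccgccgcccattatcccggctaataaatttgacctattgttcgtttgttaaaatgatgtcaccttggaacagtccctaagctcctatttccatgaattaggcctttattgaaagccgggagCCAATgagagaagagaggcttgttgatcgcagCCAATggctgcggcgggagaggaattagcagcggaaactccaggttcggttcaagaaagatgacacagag
Lhx1: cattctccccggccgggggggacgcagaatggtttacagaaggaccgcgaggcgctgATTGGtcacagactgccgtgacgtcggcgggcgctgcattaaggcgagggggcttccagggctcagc
Pax8: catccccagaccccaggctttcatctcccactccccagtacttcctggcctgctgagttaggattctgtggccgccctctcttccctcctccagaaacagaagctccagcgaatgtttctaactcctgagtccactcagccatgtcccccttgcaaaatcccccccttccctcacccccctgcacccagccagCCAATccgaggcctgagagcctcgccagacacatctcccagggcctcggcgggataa
Pou4f1: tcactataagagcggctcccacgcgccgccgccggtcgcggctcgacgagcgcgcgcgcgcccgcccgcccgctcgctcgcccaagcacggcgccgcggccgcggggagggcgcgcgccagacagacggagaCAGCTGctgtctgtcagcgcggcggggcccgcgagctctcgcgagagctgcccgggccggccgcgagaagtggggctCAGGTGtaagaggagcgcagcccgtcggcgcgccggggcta
Lmx1b, Lhx1 and Pax8 each held 1 CCAAT match, Tlx3 held 2 of them and Pou4f1 none. Of the 37 members, 30 had windows in the RefSeq table, 40 windows of 250 bases in all. CCAAT was found in 15 of the 40 windows and in 33.8% of all 32817 promoter windows of that length, and CANNTG in 15 of 40 and in 66.2%. TAATTA, a core recognised by homeodomains (1 of 40, against 4.85%), and CCCNNGGG, searched for Ebf factors (6 of 40, against 11.8%), were also counted. CCAAT was added to the search after the sequences had been seen. A match describes the letters of the window and not a bound site.

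To describe where each gene was on, a neuronal cluster was said to carry a gene where its mean over the 4 libraries was at least 10 CPM and at least 4-fold the level in oligodendrocytes, at least 10% of its nuclei had a UMI, and UMIs were found in at least 3 libraries. These minimums are not scaled for gene length, so numbers of clusters are not compared between genes. By this rule 34 of the 37 genes were carried by at least 1 neuronal cluster, beside 22.9% of the 27523 genes with a UMI in neurons. Of the 134 neuronal clusters, 132 carried at least 1 of the genes and the median cluster carried 6. Clusters 46 (Col18a1/Gpc3), 57 (Adarb2/Ebf2) and 74 (Rbm20/Nox4) carried 10 each. Clusters were called glutamatergic (69 clusters, 6201 nuclei) or GABAergic (46 clusters, 4933 nuclei) where Slc17a6, the vesicular glutamate transporter VGLUT2, and Slc32a1, the vesicular transporter of GABA and glycine, differed at least 4-fold. A further 7 clusters (830 nuclei) were mixed and 12 (575 nuclei) held too few UMIs of both to call. Glutamatergic clusters held 47.8, 49.6, 48.2 and 51.8% of the neurons of a library and GABAergic clusters held 40.2, 38.7, 38.5 and 40.1%. The 3 genes that no cluster carried were Atoh1, Isl2 and Pou3f1, the last carried by 4 clusters without the comparison with oligodendrocytes.

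**Figure D1:**
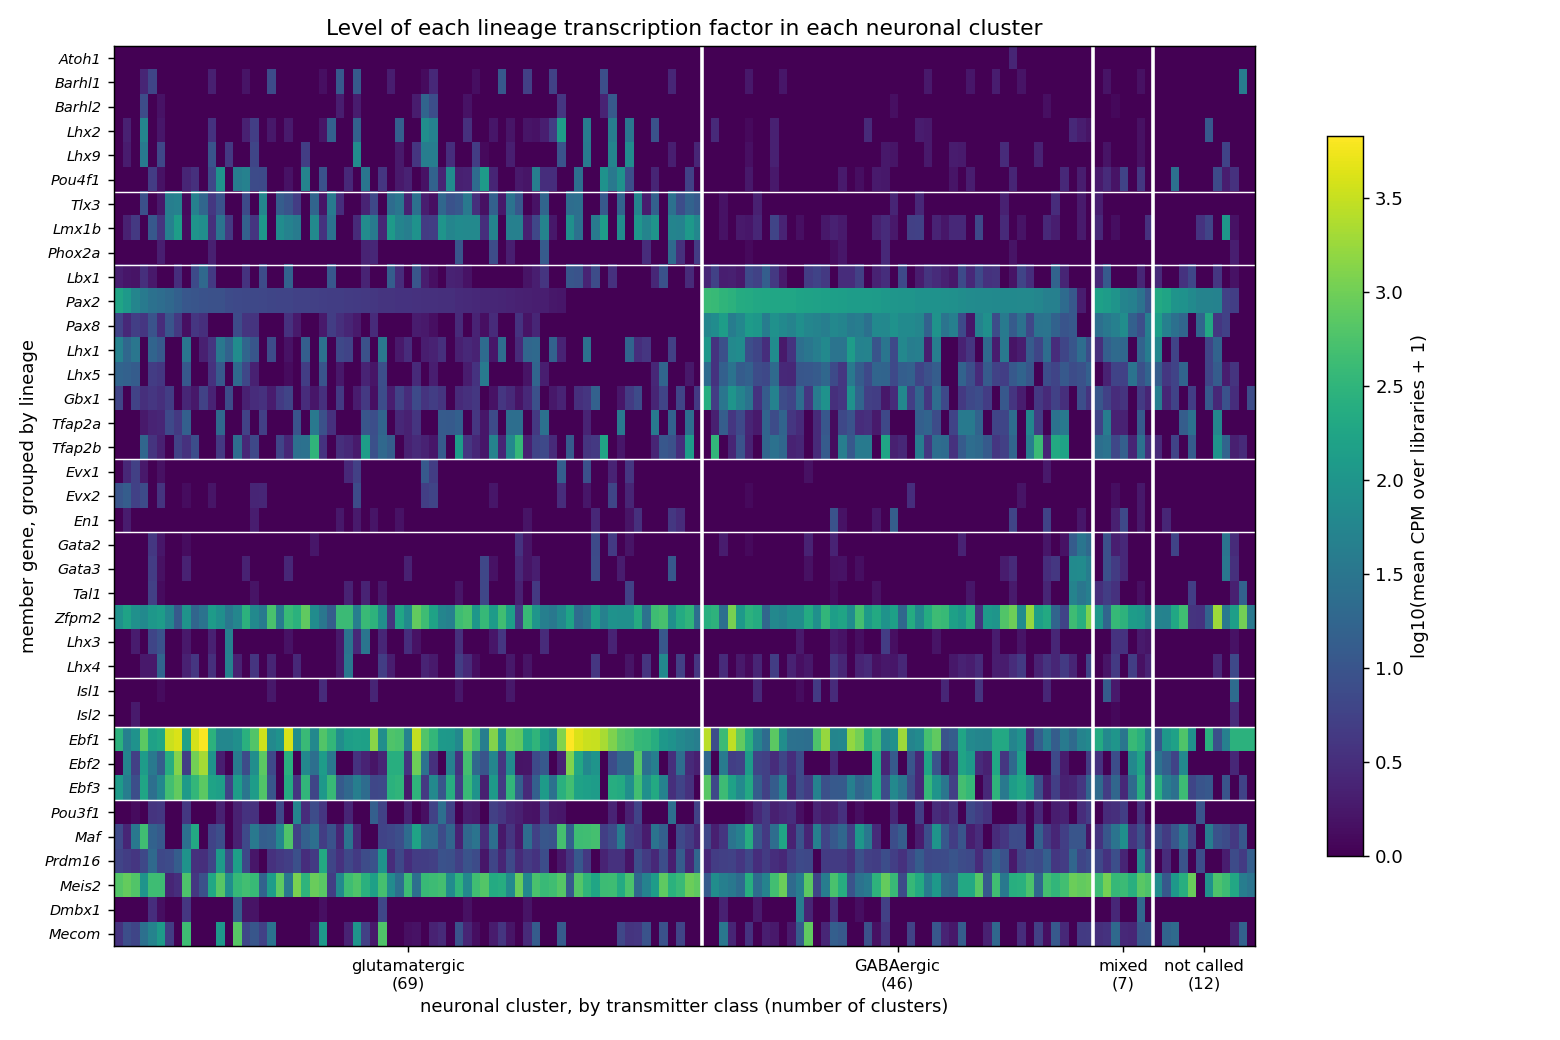
Level of the 37 genes, grouped by lineage from top to bottom, over the 134 neuronal clusters, grouped by transmitter class from left to right and ordered by Pax2 within a class. Colour is log10(mean CPM of 4 libraries + 1). The clusters that carry Tlx3 and, with 1 exception, Lmx1b lie in the glutamatergic block, most of those that carry Pax2 and Pax8 lie in the GABAergic block, and Ebf1, Meis2 and Zfpm2 run through both.

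The dorsal glutamatergic group, Tlx3, Lmx1b and Phox2a, was carried by 40 clusters, 39 of them glutamatergic. Lmx1b, a LIM homeodomain factor of dorsal excitatory and serotonergic neurons, was measured at 16.2, 13.8, 16.4 and 17.8 CPM over all neurons, against 0.488 ± 0.108 CPM (SD, n = 4 libraries) in oligodendrocytes, which served as the background of free RNA. A Lmx1b UMI was found in 10.8% of neurons (median 8704 UMIs) and in 0.131% of oligodendrocytes (median 2460 UMIs), or in 3.55 and 0.0526% once each nucleus was thinned to 2000 UMIs. Its level was highest in cluster 148 (Ccdc172/Ebf2) at 135 ± 22.6 CPM, with UMIs in 44.6% of 56 nuclei. The 4 libraries lay close together in that cluster, from 113 to 161 CPM, unlike in cluster 154 (Olfr78/Calcr), where WT 2 reached 301 and the others lay between 44.8 and 88.8 CPM. Cluster 154 was the highest with either AgRP-Gq;POMC-Gi library left out. Cluster 155 (Kcnh8/Arhgap6) was the highest with the mean log-normalised value or after thinning. The only Lmx1b cluster that was not glutamatergic was 167 (Tph2/Slc6a4), which bears the names of the serotonin-synthesising enzyme and the serotonin transporter.

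Tlx3, a homeobox selector of dorsal glutamatergic neurons, was measured at 3.95, 3.65, 4.44 and 4.99 CPM, so that the 2 genotypes did not overlap and WT was lower. It was carried by 22 clusters, each glutamatergic, with the highest level in cluster 105 (Ebf2/Calb1) at 55.4 ± 20.0 CPM. The 22 became 14 at a minimum of 20 CPM, 10 at 20% of nuclei and 11 after thinning. Each of the 22 clusters also carried Lmx1b, and together they made up 55.0% of the 40 Lmx1b clusters. Within nuclei, 183 held UMIs of both genes, which was 38.7% of the 473 nuclei with Tlx3 and 13.5% of the 1359 nuclei with Lmx1b. Phox2a, a homeodomain factor of noradrenergic and visceral neurons, was near the limit of detection at 0.410, 0.547, 0.365 and 0.624 CPM, and 53 neurons held a UMI. Only clusters 149 (Cartpt/Arhgap28, 19.9 ± 4.91 CPM) and 122 (Zfp804b/Lncenc1, 11.5 ± 6.89 CPM) carried it, and both also carried Tlx3 and Lmx1b. Phox2a kept 1 of the pair without WT 2, without AgRP-Gq;POMC-Gi 2 or after thinning, and none at 20 CPM or 20% of nuclei. Cluster 76, whose name holds that of Dbh, the noradrenaline-synthesising enzyme, followed at 9.29 ± 3.00 CPM, under the 10 CPM minimum. Of the nuclei with a Phox2a UMI, 11.3% held a Dbh UMI, against 1.01% of all neurons.

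The group of 8 genes around Lbx1 and Pax2 was carried by 90 clusters: 45 GABAergic, 32 glutamatergic, 7 mixed and 6 not called. Pax2, a paired-box factor of dorsal inhibitory neurons, was measured at 66.3, 59.4, 56.9 and 58.8 CPM over all neurons. It was carried by 60 clusters, of which 43 were GABAergic and 5 glutamatergic. Its leading cluster, 171 (Otof/Gbx1), varied widely between libraries, from 178 to 767 CPM over 42 nuclei. Cluster 125 (Otof/Stac) was tighter at 284 ± 38.5 CPM, with UMIs in 90.5% of 74 nuclei. Pax2 led in cluster 126 with the mean log-normalised value, after thinning, and without WT 2 or AgRP-Gq;POMC-Gi 2. Pax8, its close relative, was measured at 25.1, 26.6, 22.9 and 23.6 CPM, and both WT libraries lay above both AgRP-Gq;POMC-Gi libraries by a small margin. No glutamatergic cluster carried Pax8: of its 43 clusters 35 were GABAergic, 5 mixed and 3 not called. It led in cluster 178 (Npy/Ankfn1) at 141 ± 59.8 CPM over 35 nuclei and was carried more evenly by cluster 31 (Cdh3/Nkain3) at 126 ± 14.3 CPM. Cluster 31 led with the mean log-normalised value, after thinning, and with either WT library left out. Of the 43 Pax8 clusters 42 also carried Pax2, which was 70.0% of the Pax2 clusters, and 70.8% of the 1747 nuclei with a Pax8 UMI held a Pax2 UMI. No cluster carried Lmx1b together with Pax2 or Pax8. In single nuclei, 47 held UMIs of both Lmx1b and Pax2, which was 3.46% of the Lmx1b nuclei.

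Gbx1, a homeobox factor of dorsal inhibitory neurons, was measured at 7.86, 6.56, 6.66 and 10.3 CPM, highest in AgRP-Gq;POMC-Gi 2. It was carried by 15 clusters, 14 of them GABAergic, and all 15 also carried Pax2 and Pax8. It led in cluster 171 at 242 ± 109 CPM and was detected there in 59.5% of nuclei. The LIM factors Lhx1 and Lhx5 were less selective. Lhx1 was measured at 14.0, 14.9, 12.7 and 17.3 CPM and was carried by 22 GABAergic and 19 glutamatergic clusters. In its leading cluster, 144 (Nox4/Kcnmb2), the 4 libraries agreed closely at 126, 127, 133 and 134 CPM. Lhx5 was measured at 7.82, 6.38, 4.83 and 6.58 CPM, was carried by 16 GABAergic and 6 glutamatergic clusters and was highest in the glutamatergic cluster 72 (Ano2/Foxp2) at 35.2 ± 21.3 CPM and the GABAergic cluster 144 at 34.0 ± 16.3 CPM, which did not differ beyond their spread. Cluster 144 was the higher without WT 2, without AgRP-Gq;POMC-Gi 1 or with the mean log-normalised value, and cluster 133 led after thinning. Of its 24 clusters 18 also carried Lhx1, and the 24 became 4 at 20 CPM, 3 at 20% of nuclei and 4 after thinning. At least 3 of the 8 genes of the Lbx1 and Pax2 group were carried by 47 clusters.

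The AP-2 factors Tfap2a and Tfap2b, which act in neural crest and in dorsal inhibitory progenitors, were divided between the classes. Tfap2a was measured at 5.85, 6.67, 6.18 and 6.75 CPM and was carried by 11 glutamatergic and 11 GABAergic clusters, and its 26 clusters in all became 16 at 20 CPM, 7 at 20% of nuclei and 15 after thinning. Tfap2b was measured at 18.8, 25.5, 28.9 and 22.4 CPM and was carried by 15 GABAergic and 9 glutamatergic clusters. Its 2 leading clusters lay on opposite sides: the GABAergic cluster 86 (Tfap2b/Col25a1) at 408 ± 78.4 CPM and the glutamatergic cluster 70 (Tfap2b/Cntnap5b) at 352 ± 116 CPM. The AP-2 genes shared 14 clusters, 53.8% of the Tfap2a clusters and 51.9% of the Tfap2b clusters. Lbx1, a homeobox factor that in the embryo defines the late dorsal neuron class, was hardly on. It was measured at 1.94, 1.86, 1.43 and 2.41 CPM, against 0.661 ± 0.243 CPM in oligodendrocytes, and only the glutamatergic cluster 38 (Kcnh8/Maf) carried it, at 15.2 ± 1.74 CPM. The GABAergic cluster 120 (Tfap2b/Trhde) was as high on average, at 24.3, 37.4, 0 and 0 CPM, but had UMIs in both WT libraries alone. No cluster carried Lbx1 at 20 CPM, at 20% of nuclei or after thinning, and 2 did without AgRP-Gq;POMC-Gi 2.

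The genes grouped under the rhombic lip, the dorsal-most progenitor zone, were carried by 21 clusters, every one of them glutamatergic, and 14 of these carried Pou4f1, which is not particular to that zone. Atoh1, the proneural factor that founds this lineage in the embryo, had 1 UMI in 12539 neurons. Its downstream homeodomain factors were present. Lhx2 was measured at 4.17, 4.37, 2.73 and 6.09 CPM and Lhx9 at 2.87, 3.35, 2.25 and 4.62 CPM, with AgRP-Gq;POMC-Gi 1 lowest and AgRP-Gq;POMC-Gi 2 highest for both. Each was carried by 7 clusters and 6 were shared. Lhx2 led in cluster 151 (Lhx2/Reln) at 135 ± 28.9 CPM with UMIs in 70.4% of 54 nuclei, and Lhx9 led in cluster 99 at 70.5 ± 12.1 CPM. Cluster 42 (Mylk/Mctp2) carried both with little spread, Lhx2 at 73.7 ± 4.66 CPM and Lhx9 at 41.1 ± 3.34 CPM.

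Barhl1 and Barhl2, homeodomain factors downstream of Atoh1, were rare. Barhl1 was measured at 0.521, 0.620, 0.618 and 0.822 CPM and was carried by clusters 99 (11.5 ± 5.11 CPM) and 107 (10.9 ± 3.43 CPM). Of the 75 nuclei with a Barhl1 UMI, 46.7% held a UMI of Slc17a7, the glutamate transporter VGLUT1, against 2.99% of all neurons. Its highest mean, 40.2 ± 34.2 CPM, was in cluster 104 (Gabra6/Fat2), where 8.51% of nuclei held a UMI, under the 10% minimum. Barhl2 was measured at 0.335, 0.219, 0.590 and 0.737 CPM, and cluster 42 alone, at 16.2 ± 3.45 CPM, gave 51.6% of its 62 UMIs. Neither Barhl gene was carried by any cluster at 20 CPM, at 20% of nuclei or after thinning, Barhl1 by 1 without WT 1, and Barhl2 by 1 without WT 1, WT 2 or AgRP-Gq;POMC-Gi 2. Clusters 42, 50 (Lhx9/Vwc2l) and 174 (Prdm6/Grp) carried at least 3 of the rhombic lip genes each. Pou4f1 (Brn3a), a POU factor of dorsal excitatory and sensory neurons, was carried by 14 clusters, all glutamatergic, and was measured at 11.7, 4.45, 4.22 and 6.69 CPM, with WT 1 above the other libraries. Its leading cluster was 72, with 122 ± 49.3 CPM and UMIs in 75.6% of 127 nuclei, and 76 of those 127 nuclei came from WT 1. That cluster made up 3.08% of the neurons of WT 1 and 0.162 to 1.07% of those of the other libraries. With every library given the same cluster proportions, Pou4f1 was 6.80, 5.69, 5.13 and 5.62 CPM.

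**Figure D2:**
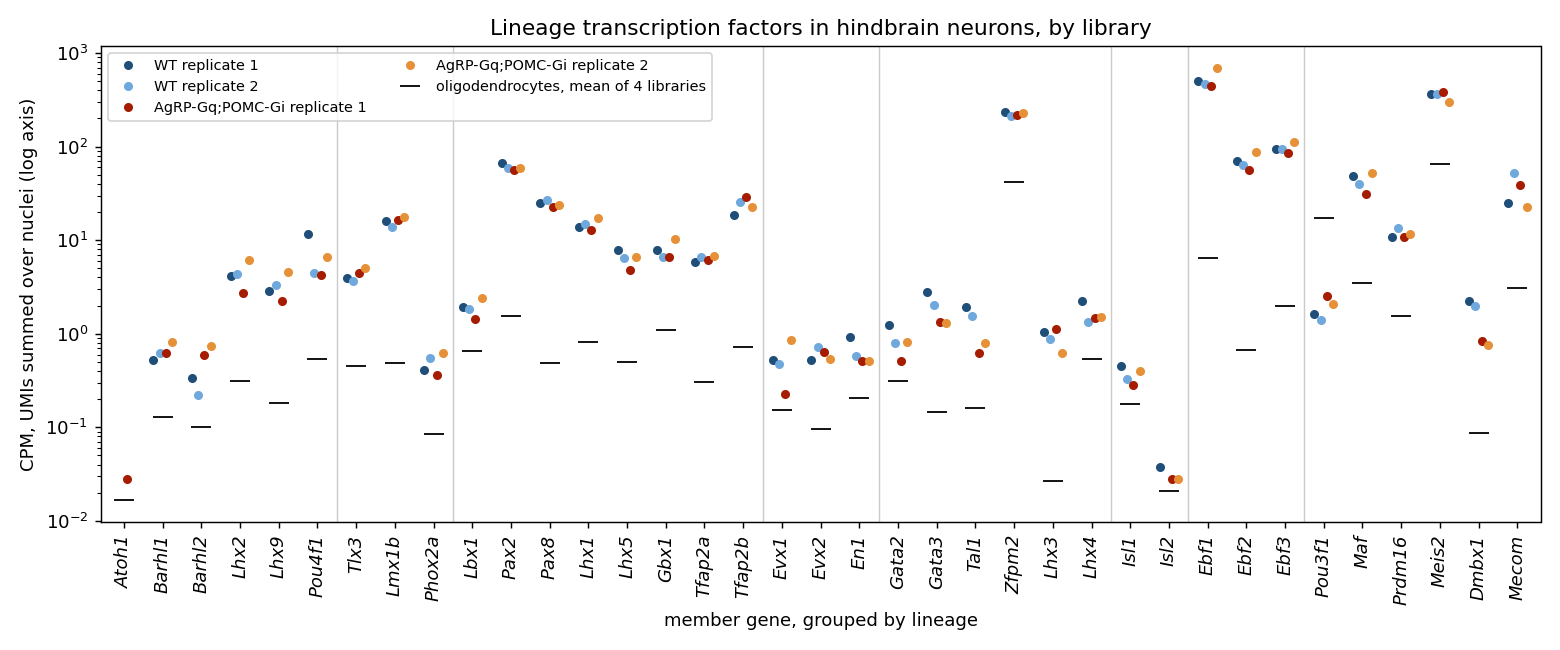
CPM of the 37 genes over all neurons in each of the 4 libraries (points, log axis, values of 0 not drawn), with the mean in oligodendrocytes as a dash. Most genes lie above the oligodendrocyte level in each library, and the WT and AgRP-Gq;POMC-Gi points are intermingled for most genes, with Dmbx1, Tal1 and Gata3 higher in both WT libraries.

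The genes grouped under ventral identity were Gata2, Gata3, Tal1, Zfpm2, Lhx3, Lhx4, En1, Evx1 and Evx2. Gata2, Gata3 and Tal1, which act together in V2b inhibitory neurons, were detected in 85, 148 and 123 neurons. Gata3 was measured at 2.79, 2.04, 1.35 and 1.30 CPM and Tal1 at 1.94, 1.53, 0.618 and 0.794 CPM, both WT libraries above both AgRP-Gq;POMC-Gi libraries for each. Gata2 was measured at 1.23, 0.802, 0.506 and 0.822 CPM, and its groups overlapped. Tal1 was carried by 3 GABAergic clusters, 82 (Tal1/Nell1, 44.1 ± 3.86 CPM), 103 (Gata3/Crhbp, 31.3 ± 13.7 CPM) and 152 (Foxp2/Gata3, 49.9 ± 25.9 CPM). Gata3 was carried by the same 3 clusters and by cluster 167, where it was 39.9, 0, 41.0 and 45.7 CPM. Gata2 was carried by 82, 103 and 167, at 18.9 ± 6.56, 30.2 ± 22.2 and 28.8 ± 21.5 CPM. Gata2 and Gata3 are also known from serotonergic neurons, and of the nuclei with a Gata2 UMI 14.1% held a UMI of Tph2, the brain tryptophan hydroxylase, against 0.710% of all neurons.

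Lhx3 and Lhx4, LIM factors of V2a and motor neuron progenitors, were measured at 1.04, 0.875, 1.12 and 0.624 CPM and at 2.23, 1.35, 1.49 and 1.50 CPM. Both were carried by the glutamatergic clusters 184 (Calcr/Shox2) and 115 (Sema3a/Cdh9), in which Lhx3 reached 45.6 ± 23.8 and 29.2 ± 16.4 CPM. Lhx4 was also carried by clusters 185 (Hmcn2/Abcb5) and 30 (Zfp804b/Npas1). At 20% of nuclei Lhx3 kept 1 of its 2 clusters and Lhx4 kept 2 of its 4, and Lhx4 also kept 2 after thinning. Zfpm2 (Fog2), a cofactor of GATA proteins, was measured at 237, 210.1, 219 and 228 CPM with 41.5% of neurons holding a UMI. It was carried by 49 clusters, 22 glutamatergic and 22 GABAergic among them, and led in cluster 157 (Cnpy1/Adamts18) at 1867 ± 275 CPM. Oligodendrocytes held it too, at 41.9 ± 2.75 CPM, and without the comparison with them 115 clusters carried it.

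The V0 and V1 markers were at the edge of what these libraries could show. En1, of V1 inhibitory neurons, was measured at 0.931, 0.583, 0.506 and 0.510 CPM and was carried by the GABAergic cluster 73 (Sema3a/Klhl1) at 12.5 ± 3.20 CPM. Evx1 was measured at 0.521, 0.474, 0.225 and 0.850 CPM and Evx2 at 0.521, 0.729, 0.646 and 0.539 CPM. These factors of V0 excitatory neurons were each carried by 1 glutamatergic cluster, Evx1 by 151 (13.1 ± 12.2 CPM, with 0 UMIs in WT 1) and Evx2 by 109 (Gcg/Reln, 12.6 ± 4.08 CPM). Cluster 151 no longer carried Evx1 without WT 2, without AgRP-Gq;POMC-Gi 1 or without AgRP-Gq;POMC-Gi 2. At 20 CPM, at 20% of nuclei or after thinning no cluster carried En1, Evx1 or Evx2. Isl1, a LIM factor of motor neurons, was measured at 0.447, 0.328, 0.281 and 0.397 CPM and was carried only by cluster 116 (Prph/Slc5a7) at 21.1 ± 12.9 CPM. That cluster, named after peripherin and the choline transporter, gave 46.7% of the 45 Isl1 UMIs, and it no longer carried Isl1 at 20% of nuclei or after thinning. Isl2 had 3 UMIs in all neurons.

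The Ebf factors, helix-loop-helix proteins of early neuronal differentiation, were carried by 116 clusters. Ebf1 was measured at 509, 466, 441 and 700.1 CPM, with AgRP-Gq;POMC-Gi 2 above the other 3 libraries and AgRP-Gq;POMC-Gi 1 lowest. It was carried by 114 clusters, 68 of the 69 glutamatergic and 34 of the 46 GABAergic ones, and led in cluster 146 (Rxfp1/Ebf2) at 6755 ± 1053 CPM. Ebf2 was measured at 70.5, 64.1, 55.8 and 88.2 CPM and Ebf3 at 94.3, 95.2, 86.5 and 112 CPM, with the same libraries lowest and highest. All 41 Ebf2 clusters also carried Ebf3, which was 54.7% of the Ebf3 clusters, and 82.8% of the nuclei with an Ebf2 UMI held an Ebf3 UMI. All 3 genes were carried by 40 clusters. Ebf2 led in cluster 129 (Bnc2/Ebf2) at 2062 ± 459.8 CPM and Ebf3 in cluster 148 at 805 ± 217 CPM.

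Of the remaining genes, Meis2, a TALE homeodomain cofactor, was measured at 362, 363, 383 and 303 CPM and was carried by 68 clusters, or by 104 without the comparison with oligodendrocytes. It led in cluster 111 (Cartpt/Postn) at 1157 ± 236 CPM. Maf, a basic leucine zipper factor, was measured at 49.0, 40.1, 30.9 and 52.0 CPM. Its leading cluster, 38 (Kcnh8/Maf), gave 21.0% of its UMIs and was even across libraries at 587, 619.9, 595 and 591 CPM. Mecom (Evi1), a zinc finger PR-domain factor, was measured at 25.2, 51.9, 39.1 and 22.7 CPM, and 3 clusters, 66 (792 ± 208 CPM), 28 (Mecom/Sema3a, 434 ± 124 CPM) and 137 (Mecom/Col12a1, 591 ± 221 CPM), gave 63.7% of its UMIs. Its relative Prdm16 was measured at 10.8, 13.6, 10.7 and 11.6 CPM, led in cluster 45 (Prdm16/Zfp804b) at 211 ± 54.5 CPM and shared 5 of its 7 clusters with Mecom. Dmbx1, a homeobox factor, was measured at 2.23, 1.97, 0.843 and 0.765 CPM and was carried by the GABAergic cluster 35 (Dmbx1/Cntnap5b, 40.4 ± 18.7 CPM) and the mixed cluster 57 (17.8 ± 9.62 CPM). It kept 1 of the pair at 20 CPM, at 20% of nuclei or after thinning. Pou3f1 (Oct6), known from myelinating cells, was lower in neurons (1.91 ± 0.506 CPM) than in oligodendrocytes (17.4 ± 2.98 CPM). Its highest neuronal level was 51.8 ± 19.1 CPM in cluster 111. At least 3 of the 6 genes of this paragraph were carried by each of clusters 28, 45, 57, 123 (Reln/Pou4f1), 137 and 173 (Mecom/Oprk1).

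Whether these genes go with transmitter class was tested outside the clusters. Neurons with a Slc17a6 UMI and no Slc32a1 UMI (4196 nuclei, median 10079.5 UMIs) were compared with those of the opposite kind (2229 nuclei, median 10166 UMIs), summed per library, with edgeR's quasi-likelihood test and the library as a block. Of the first, 3.67% lay in GABAergic clusters, and of the second, 5.20% lay in glutamatergic ones. Left out of the test were 5834 neurons with a UMI of neither transporter (median 7318 UMIs) and 280 with UMIs of both. Free RNA reaches both classes, since 3.49% of oligodendrocytes held a Slc17a6 UMI and 2.82% a Slc32a1 UMI. Of 12627 genes tested, 8.81% were higher in Slc17a6 nuclei and 6.99% were higher in Slc32a1 nuclei at an adjusted p under 0.05. Of the 20 members with UMIs in at least 5% of the nuclei of either class, 12 were higher and 6 lower in Slc17a6 nuclei. A gene that passed this minimum through its higher class alone had to differ, so that count is no support for the group. Of Pax8, Gbx1, Lmx1b, Tlx3, Lhx2, Lhx9, Pou4f1 and Mecom, under 5% of the nuclei of the lower class held a UMI in every library. The same was true of Lhx5 in 3 of the 4 (2.51 to 6.64%) and of Tfap2a in WT 1 and AgRP-Gq;POMC-Gi 2 (4.35 and 4.24%). It was also true of Prdm16 in AgRP-Gq;POMC-Gi 1 and 2 (4.26 and 4.71%). The differences of all these genes are given as descriptions with no p.

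Pax8 was 3.34, 1.78, 2.40 and 1.62 CPM in Slc17a6 nuclei and 50.0, 52.0, 45.2 and 51.1 CPM in Slc32a1 nuclei. The ranges were far apart in all 4 libraries, and the difference was -4.42 ± 0.13 (log2, SE). Pax2 was 13.1, 11.2, 14.5 and 10.1 against 121, 116, 109 and 113 CPM, a difference of -3.19 ± 0.08 (edgeR adjusted p = 5.50e-13). Between 49.2 and 57.6% of the Slc32a1 nuclei of a library held a Pax2 UMI, and between 5.04 and 7.85% of the Slc17a6 nuclei did.

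Gbx1 followed at -2.33 ± 0.19, with 2.85, 3.09, 2.10 and 1.92 CPM in Slc17a6 nuclei and 13.0, 10.8, 9.31 and 17.6 CPM in Slc32a1 nuclei. Lhx1 (-1.21 ± 0.10) and Zfpm2 (-0.40 ± 0.04) were lower in Slc17a6 nuclei by less, with edgeR adjusted p of 9.10e-07 and 2.20e-06, and Lhx5 differed by -1.25 ± 0.19.

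On the glutamatergic side, Lmx1b was 25.6, 23.7, 27.5 and 29.0 CPM in Slc17a6 nuclei and 2.59, 0.729, 1.31 and 2.16 CPM in Slc32a1 nuclei. This gave a difference of 3.98 ± 0.17 (log2, SE). Tlx3 was 6.18, 5.33, 7.66 and 7.44 against 0.865, 0.911, 0.582 and 0.288 CPM, a difference of 3.41 ± 0.27. For Tlx3 this became 5.64 with the class of the whole cluster. It was 5.12 when Slc32a1 nuclei also had to hold a Gad1 or Gad2 UMI and Slc17a6 nuclei had to hold none. Lhx9 differed by 5.64 ± 0.41, Lhx2 by 5.34 ± 0.33 and Pou4f1 by 4.44 ± 0.29. With 1 library left out Lhx9 ran from 4.95 (without AgRP-Gq;POMC-Gi 2) to 6.74 (without AgRP-Gq;POMC-Gi 1), Lhx2 from 4.98 (without AgRP-Gq;POMC-Gi 2) to 6.23 (without WT 1) and Pou4f1 from 3.75 (without WT 1) to 4.88 (without AgRP-Gq;POMC-Gi 2). With at least 2 UMIs of the transporter Lhx9 was 8.17. Lhx9 was 5.59, 6.27, 4.58 and 9.36 CPM in Slc17a6 nuclei, and in Slc32a1 nuclei it had no UMI in WT 1 and AgRP-Gq;POMC-Gi 2 and reached 0.182 and 0.291 CPM in the others.

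Ebf2 (1.49 ± 0.08), Ebf1 (1.19 ± 0.04), Prdm16 (1.37 ± 0.13), Mecom (0.96 ± 0.13), Maf (0.60 ± 0.05), Ebf3 (0.45 ± 0.05) and Meis2 (0.38 ± 0.05) were higher in Slc17a6 nuclei. For Ebf1 this was 698, 636, 556 and 903 CPM against 290.4, 293, 256 and 411 CPM. Tfap2a differed by -0.23 ± 0.15 and Tfap2b by -0.18 ± 0.13 (edgeR adjusted p = 0.433). Neither was called, and both had positive values (0.31 and 0.03) when at least 2 UMIs of the transporter were asked for. With the class of the whole cluster they were -0.37 and -0.50. Those clusters were built from expression, so these 2 values are descriptions without a test. The number of members called was 18 with any 1 library left out, that with low Xist included. With no library left out, 15.8% of all genes tested were called. This became 13.5% without WT 1, 13.0% without WT 2, 12.2% without AgRP-Gq;POMC-Gi 1 and 10.1% without AgRP-Gq;POMC-Gi 2. The same detection minimum chose the members in these fits, so their unchanged count is no support for the group either.

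**Figure D3:**
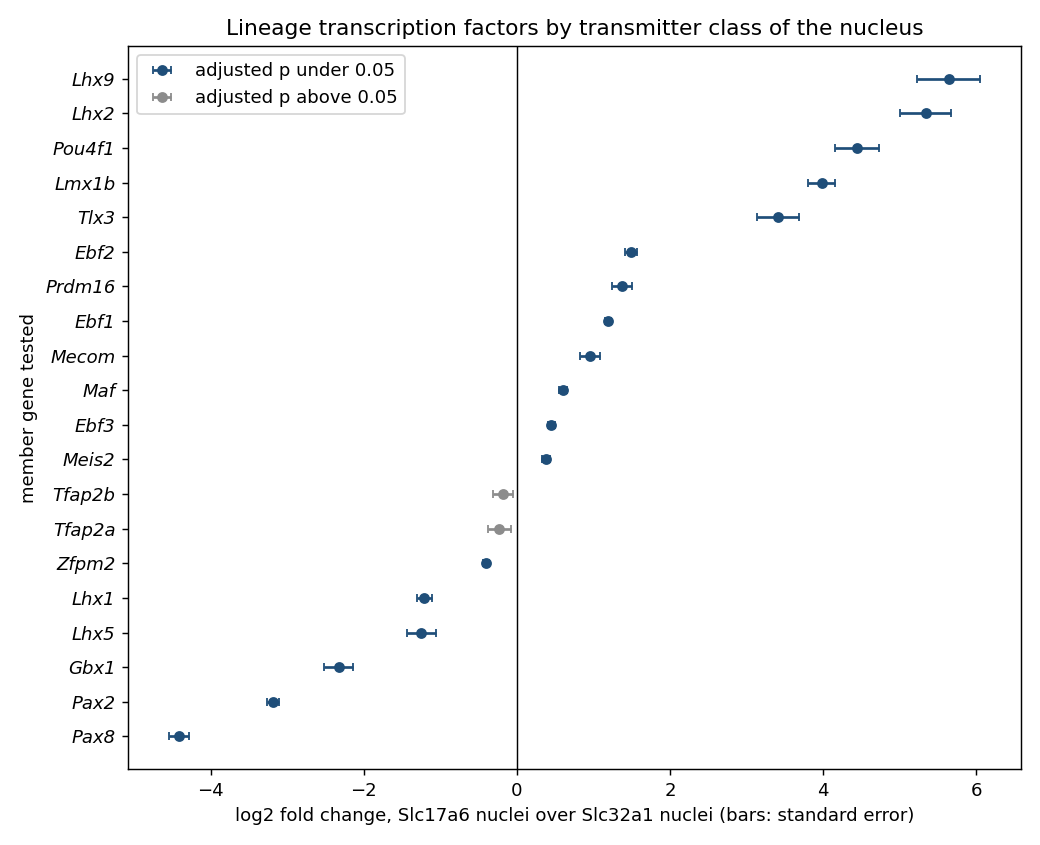
Log2 difference between Slc17a6 nuclei and Slc32a1 nuclei for the 20 tested genes (points, with SE bars from the edgeR fit over 4 libraries). Values run from -4.42 for Pax8 to 5.64 for Lhx9, and the AP-2 genes Tfap2a and Tfap2b sit near 0.

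The 17 members below the 5% minimum were tested only in a fit without it, where 31 of the 37 were called, 19 higher and 12 lower in Slc17a6 nuclei, beside 6.40% and 4.01% of 26785 genes. Standard errors of the shared members were close to those with the minimum for most genes, but the p-values were much smaller, and they are not given. The count of 31 in that fit rests on those p-values, and 20 of the 37 are the members tested above. No minimum of UMIs was set for the 26785 genes beside it, so this count is no support for the group. In that fit Evx2 differed by 4.34 ± 0.87 and Barhl2 by 3.53 ± 0.78, and Gata2 (-3.85 ± 0.60), Tal1 (-3.80 ± 0.50) and Gata3 (-3.06 ± 0.37) lay on the Slc32a1 side. Tal1 was 0.294, 0.187, 0 and 0.147 CPM in Slc17a6 nuclei and 4.15, 2.73, 1.31 and 1.44 CPM in Slc32a1 nuclei. Lbx1 was also on that side (-0.85 ± 0.27), at 1.47, 1.22, 1.35 and 1.55 CPM in Slc17a6 nuclei and 2.42, 2.73, 1.60 and 3.74 CPM in Slc32a1 nuclei. Evx1 had no UMI in any Slc32a1 sum and 1.08, 0.842, 0.451 and 1.40 CPM in Slc17a6 nuclei. Whether the class difference itself varied with genotype was tested as an interaction, a comparison added after the data were seen: 0 of the 20 members passed (smallest edgeR adjusted p = 0.922, with 4 members and 536 of 12627 genes at an unadjusted p under 0.05), beside 0.0317% of the 12627 genes.

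Other genes known to act with these factors were taken from a list of 63. In the class test 17 of them had enough UMIs, and 9 were higher and 2 lower in Slc17a6 nuclei, beside 8.81% and 6.99% of all genes tested. The same minimum chose them, so this count is no support either. Prrxl1, a partner of Tlx3 in dorsal neurons, differed by 2.26 ± 0.20 (log2, SE). Meis1 (1.01 ± 0.07) and Irx2 (1.27 ± 0.16) were also higher. Ptf1a, Neurog1, Dbx1 and Hand2 had 0 UMIs in these neurons.

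The genes whose cluster patterns came closest were found by Pearson r of log2(CPM + 10) over 133 clusters, for the 24 members with at least 200 UMIs. The points share libraries and depth, and r is a description. For 16 of the 24 the closest gene lay within 100 kb, against 9.16% of 15462 genes compared, and 15 of the 16 were not protein coding and 14 lay on the opposite strand. Strand handling in the counting is not given in the sources used here, so reads of a gene and its antisense partner may not be told apart where they overlap, as 10 of the 16 did. Pax8 and Gm13415 (r = 0.95), Lhx2 and Gm13584 (r = 0.96) and Ebf2 and 4930438E09Rik (r = 0.97) overlap on opposite strands. Others do not overlap: Lhx1os starts 125 bases from Lhx1 (r = 0.94), C130021I20Rik 682 bases from the Lmx1b start of the annotation used for distances (r = 0.93; 94 bases separate it from the RefSeq start of the printed window) and Gm12116 466 bases from Tlx3 (r = 0.82), the head-to-head pairs whose promoters are printed above. Tlx3 is not one of the 16, since Lmx1b on another chromosome was as close (r = 0.82). Between members, r was 0.82 for Tlx3 and Lmx1b, 0.85 for Pax2 and Pax8, 0.79 for Lhx2 and Lhx9 and -0.56 for Lmx1b and Pax2. Gata2 had under 200 UMIs and was not among the 24, and its r with Gata3 was 0.90. Gbx1 had no near match, and its closest gene was Sall3 (r = 0.77). Prdm16 was closest to Mecom (r = 0.63).

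The genotypes were then compared over all neurons and over the glutamatergic and GABAergic clusters, AgRP-Gq;POMC-Gi against WT. No gene passed edgeR's adjusted p under 0.05 in any of the 3 comparisons, 0% of 12115, 12150 and 12097 genes tested, so none of the 15, 14 and 13 members tested did. At an unadjusted p under 0.05 there were 667, 677 and 602 genes, and 0, 2 and 3 members. DESeq2 called 12, 11 and 3 genes and no member. The median log2 difference of the members tested was 0.10, 0.07 and 0.11, with that of all genes at 0.00 in each. In sums over neurons, fewer nuclei of a type and less RNA per nucleus cannot be told apart, so levels were also computed at equal cluster proportions, each of 120 clusters given its pooled share of nuclei in every library.

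For Lmx1b and Ebf1 little difference was left in this step, and for Pax2 and Pax8 more was. These levels carry no TMM factors and weight clusters by nuclei, so they differ from the tested sums in more than proportions. The Lmx1b sums over all neurons differed by 0.25 ± 0.12 (log2, edgeR adjusted p = 0.810), or by 0.19 without TMM factors. With equal cluster proportions Lmx1b was 20.4, 17.4, 19.1 and 18.2 CPM, a log2 difference of -0.02. Ebf1 differed by 0.27 ± 0.17 over all neurons (0.23 without TMM factors), with AgRP-Gq;POMC-Gi 2 at 700.1 CPM. At equal proportions it was 561, 594, 597 and 551 CPM, a log2 difference of -0.01, and the 4 libraries then overlapped closely. Clusters 129 and 146, in which Ebf1 is highest, made up 0.990 and 0.715% of the neurons of that library and at most 0.607 and 0.406% of the others. They gave 2504 and 2309 of the 66848 Ebf1 UMIs. Cluster 38, which gave the most (7392), made up 2.34% of the neurons of that library and 0.839 to 1.46% of the others. The part of these clusters in the Ebf1 level of that library was not tested. Without AgRP-Gq;POMC-Gi 2 the Ebf1 difference over all neurons was -0.03. Pax2 at equal proportions was 67.1, 62.4, 57.6 and 57.0 CPM, a log2 difference of -0.18. Pax8 was 23.8, 26.8, 22.6 and 21.1 CPM, a log2 difference of -0.22. For both genes both WT libraries stayed above both AgRP-Gq;POMC-Gi libraries.

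In glutamatergic clusters Tlx3 differed by 0.39 ± 0.16 (unadjusted p = 0.0395, edgeR adjusted p = 0.847) and Lmx1b by 0.26 ± 0.11. In GABAergic clusters Ebf3 differed by 0.31 ± 0.08 (unadjusted p = 0.00307, edgeR adjusted p = 0.912), Ebf1 by 0.35 ± 0.13 and Gbx1 by 0.42 ± 0.18. At equal cluster proportions over all neurons, the log2 differences of Tlx3, Ebf3 and Gbx1 were 0.17, 0.01 and 0.07. These cover a wider set of nuclei than the class tests. Values at equal proportions within a class were not computed, so the class differences cannot be set against them. None of the tests passed the adjusted threshold. The library with low Xist bore on these counts: without AgRP-Gq;POMC-Gi 2, edgeR called 2017, 553 and 903 genes in the 3 comparisons (16.6, 4.55 and 7.46% of those tested), with Meis2 (0.19, all neurons) and Ebf3 (0.26, GABAergic clusters) the members among them. Without AgRP-Gq;POMC-Gi 1, Ebf1 was called over all neurons (0.53) and in GABAergic clusters (0.52), beside 0.239 and 0.240% of genes, and without WT 2, Tfap2b (1.31) and Pou4f1 (-1.12) were called in glutamatergic clusters, beside 0.230%. With all 4 libraries these were 0.56 ± 0.36 and -0.54 ± 0.42, and without WT 1 they were 0.08 and 0.40. In each fit without 1 library the lone library of a genotype was assumed to vary like the pair of the other.

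Dmbx1 had the widest gap of the 37 genes at equal proportions, next to Isl1, which rested on 45 UMIs (log2 difference -1.13). Dmbx1 was then 1.82, 1.47, 0.564 and 0.826 CPM, a log2 difference of -1.14, with both WT libraries above both others. It was too rare for the 5% minimum, and without it the edgeR fit gave -1.31 (unadjusted p = 0.000868, adjusted p = 0.867). Tal1 and Gata3 gave -1.23 and -0.80 in that fit (adjusted p = 0.867 for both) but -0.34 and -0.24 at equal proportions. Both WT libraries lay above both AgRP-Gq;POMC-Gi libraries for 6 of the 37 members (Pax2, Pax8, Tal1, Gata3, En1, Dmbx1), beside 22.8% of 27523 genes, and below them for 4 (Lmx1b, Tlx3, Barhl2, Pou3f1), beside 11.8%. The oligodendrocyte transcript Mbp, given above, was likewise higher in both WT libraries, and its part in these differences was not tested.

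**Figure D4:**
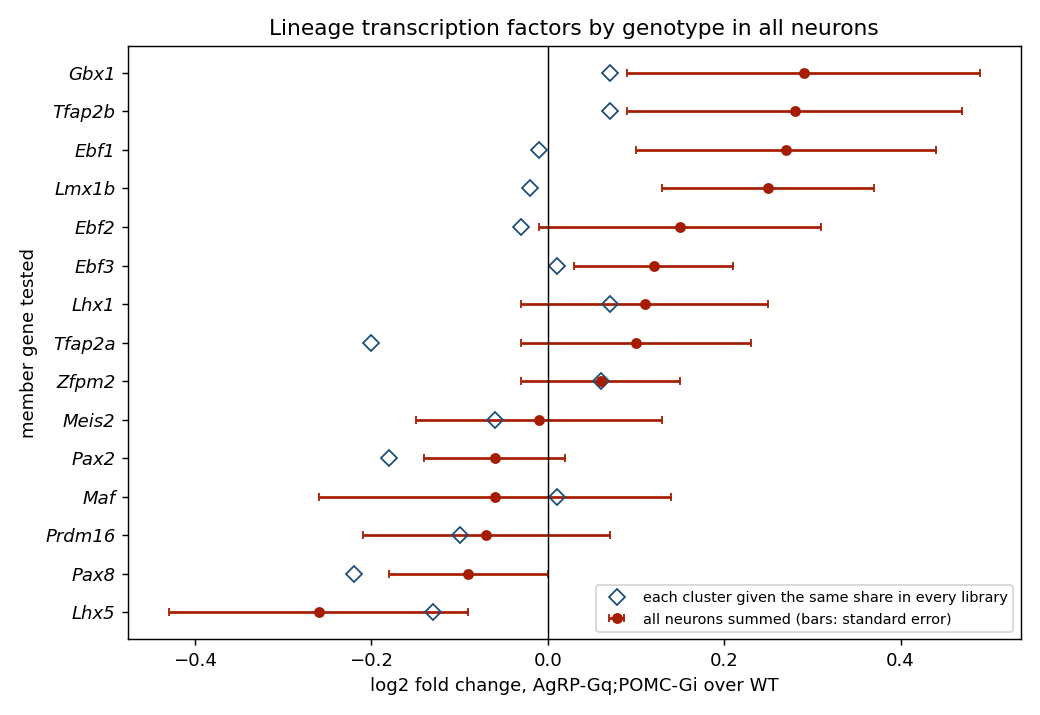
Log2 difference of AgRP-Gq;POMC-Gi over WT neurons for the 15 members tested, from sums over all neurons (dots, with SE bars from the edgeR fit) and at equal cluster proportions (diamonds). For Lmx1b and Ebf1 the differences of 0.25 and 0.27 move to -0.02 and -0.01. The diamonds of Pax2 and Pax8 lie at -0.18 and -0.22. Diamonds carry no TMM factors and weight clusters by nuclei, so they differ from the dots in more than proportions.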

How the data were processed

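Single-nucleus 3′ RNA libraries from mouse hindbrain, 2 of WT and 2 of AgRP-Gq;POMC-Gi mice, were read as the deposited tables of UMI counts per gene and nucleus. The authors made these raw counts with Cell Ranger 7.0.0, per the submitters' processing notes, which also name Seurat 4.3.0 and the build GRCm38 (mm10). Nuclei under 800 UMIs, under 500 genes or above 10% mitochondrial RNA had been dropped by the authors, who also called doublets and clustered the nuclei, and whose annotation of kept nuclei, cell types and clusters was used as deposited. Strand handling in the counting is not given in the sources used here. The 37 genes, their lineage groups and the list of 63 further genes were chosen with earlier results of these data known.

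UMIs of neuronal clusters were summed per library and divided by the library's neuronal total to give CPM. Totals were 26860073, 27431280, 35583732 and 35276413 UMIs. A cluster was glutamatergic where Slc17a6 was at least 4-fold Slc32a1 in mean CPM, GABAergic in the opposite case, and not called with under 20 UMIs of both. Genotype and transmitter class were tested on summed counts with edgeR 4.0.16 (quasi-likelihood, TMM, Benjamini-Hochberg over all genes tested, threshold 0.05) in R 4.3.3, for genes detected in 5% or more of the nuclei (for transmitter class, of those of either class). The SE of a log2 difference is its absolute value divided by the square root of the test's F. It is a rough guide where a class had few or no UMIs of the gene. With 200 genes changed 2-fold in simulated data, 100%, 99.0%, 98.0% and 100% were recovered for all neurons, glutamatergic clusters, GABAergic clusters and transmitter class, with 4, 7, 16 and 10 false calls. Each simulated gene was given the fitted trend of variation at its level. Recovery of genes that vary more than this trend between libraries was not measured, so these shares are no measure of power in the real data. Levels at equal cluster proportions are cluster CPM averaged with each cluster's pooled share of nuclei, over the 120 clusters in which no library had fewer than 5 nuclei. They carry no TMM factors, and their log2 differences used a pseudocount of 0.1 CPM. Genes named as most alike are the 3 with the highest r, of which the text gives a selection. Clusters named are the 3 leading ones of a gene or those carrying at least 3 genes of a group, of which the text names a selection, and cluster 182 was named outside this rule after its values were seen. Shares of nuclei carry counting error besides the spread between libraries. Values are given for all 34 carried genes. A few further genes are not reported here, and clusters whose names hold them are given by number. Alternatives were DESeq2 1.42.0, other filters and normalisations, the replicate number as a block, other class rules, thinning to 2000 UMIs and leaving out each library.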

Additional observations from a re-analysis of the deposited data

Results flagged for a closer look

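Of the 37 genes, 7 were at least 4-fold higher in a cell type outside the neurons than in neurons, with UMIs in at least 20 of its nuclei. These values lie outside the comparisons between neurons. Ebf1 was 3270.5 ± 242 CPM (SD, n = 4 libraries) in Mural cells, 6.18-fold its level in neurons, with UMIs in 95.9% of 806 nuclei. Maf, 43.0 CPM in neurons, was 1736 ± 632 CPM in F13a1.Immune cells, which held 88 nuclei. Endothelial cells had Mecom at 2132 ± 206 CPM, 61.4-fold the neuronal level, and Gata2, a factor of endothelial and blood lineages, at 122 ± 23.3 CPM, 146-fold the neuronal level of 0.840 CPM. Tal1, which also acts in blood and endothelial development, was 71.9 ± 24.9 CPM in Tmem119.Immune cells, named after a microglial gene, with UMIs in 12.6% of 969 nuclei. Pou3f1 was 37.9 ± 26.2 CPM in OPC, 19.8-fold the neuronal level, and 1 library (AgRP-Gq;POMC-Gi 1) gave 77.1 CPM where the others gave 22.7 to 26.8 CPM. Prdm16 averaged 684 CPM in Choroid plexus over the 4 libraries, but 2 of them held hardly any such nuclei: WT 1 had 1 UMI in 2 nuclei (108 CPM) and AgRP-Gq;POMC-Gi 1 had 23 UMIs in 6 nuclei (915 CPM). The value rests on WT 2 (812 CPM, 436 nuclei) and AgRP-Gq;POMC-Gi 2 (901 CPM, 329 nuclei).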

How the results depend on the processing

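With 2 libraries per genotype, counts of genes called between genotypes moved with most choices, though they were 0 without TMM factors. Under the 5% minimum lay 17 members in the transmitter class test. Over all neurons 0 genes became 12 with DESeq2, 1 without a filter, 1 with filterByExpr and 168 with the replicate number as a block. In glutamatergic clusters these were 11, 13, 1 and 1, and in GABAergic clusters 3, 7, 1 and 37. No member was called under the block. Libraries of the same number deviated together only weakly (r = 0.18), and the labels say nothing of a shared number. With 1 library left out, the counts ran from 3 to 2017, from 3 to 553 and from 3 to 903, the highest each time without AgRP-Gq;POMC-Gi 2, and 0 to 1, 0 to 2 and 0 to 1 members were called. With 1 library left out, Meis2 ran from -0.25 to 0.19 and Ebf1 from -0.03 to 0.53 over all neurons, both changing sign without AgRP-Gq;POMC-Gi 2, and Pou4f1 from -1.12 to 0.40 in glutamatergic clusters, changing sign without WT 1. The cause was not tested. The 1995 genes called between transmitter classes became 894 with DESeq2, 861 without the library block, 1321 with at least 2 UMIs of the transporter, and 1279 to 1702 with 1 library left out. The 18 members called became 31 without the filter, and neither count is support for the group. With 2 UMIs Tfap2b (0.03) and Tfap2a (0.31) turned positive, while with the class of the whole cluster they were -0.50 and -0.37. Clusters were built from expression, so the latter are descriptions without a test. A gene's leading cluster stayed for 20 of 35 genes after thinning to 2000 UMIs, for 26 with the mean log-normalised value and for 26 to 30 with 1 library left out. Members carried by a cluster were 27 at 20 CPM, 26 at 20% of nuclei, 27 after thinning and 35 without the comparison with oligodendrocytes, and 33 to 34 with 1 library left out. At 20% of nuclei Tfap2b went from 27 to 17 clusters, Maf from 36 to 23 and Mecom from 8 to 4. The neuronal level of 31 of 37 members stayed within 1 SD when CPM were averaged over nuclei.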

Other observations

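Further lineage factors outside the 37 genes had narrow patterns of their own among the neuronal clusters. Lmx1a, the relative of Lmx1b, was 1.94 ± 0.958 CPM over all neurons (SD, n = 4 libraries) and 565 CPM in cluster 182. Sox14, a factor of a V2 class of neurons, was highest in cluster 185 at 65.7 CPM, the cluster in which Lhx4 was highest. That cluster held 15 nuclei and 9 Lhx4 UMIs, at 100.0, 83.1, 0 and 60.7 CPM. After thinning, cluster 184 led for Lhx4. Fev, the serotonergic ETS factor, was highest in cluster 167 (14.2 CPM), which carried Gata2, Gata3 and Lmx1b. Tbx20 and Mnx1, factors of motor neurons, were highest in cluster 116 (73.6 and 5.58 CPM), the cluster that carried Isl1. These genes were rare, with 56 UMIs of Sox14, 24 of Fev, 129 of Tbx20 and 6 of Mnx1 in all neurons. The level of Mnx1 in cluster 116 lies under the 10 CPM minimum. Onecut1 and Onecut3 were highest in cluster 173 (66.0 and 26.8 CPM), which carried Mecom and Prdm16. Cluster 72, which led for Pou4f1, also led for Foxp2 at 1989 CPM, and 76 of its 127 nuclei came from WT 1. These levels describe clusters that were built from expression, and no difference between them was tested.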
